A study of Homo sapiens with 66 samples.

Results

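AMO1, an established human myeloma cell line, was exposed to halofuginone (HFG) at 1 µM for 6 h or to DMSO, the solvent control, and the 2 treatments were compared by RNA-seq in 3 libraries each. These 6 libraries belong to a series of 66, and of its 20167 genes the 10737 with enough reads in the 6 libraries were tested. To place the HFG profile beside its nearest relatives, HFG was also compared directly with halofuginol and with NCP26, each at 1 µM for 6 h in 3 libraries of the same cells. All groups are unmodified AMO1 cells, so the model is 1 line, and the labels do not say whether replicates came from separate cultures, so p-values measure only the spread between these libraries. Cells of the 6 h groups were lysed in Trizol and kept frozen overnight before RNA extraction.

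HFG is a derivative of the plant alkaloid febrifugine. It occupies the proline pocket of prolyl-tRNA synthetase (ProRS), a catalytic part of the bifunctional protein that EPRS1 encodes, and competes there with proline. Halofuginol is its analogue with an alcohol in place of a ketone, and NCP26 is a chemically unrelated ProRS inhibitor of the ATP site. A tRNA left without its amino acid is sensed by the kinase GCN2 (EIF2AK4), which phosphorylates the initiation factor eIF2. General translation then falls while the transcription factor ATF4 is made from existing mRNA, and ATF4 with its partners induces genes for amino acid supply, tRNA charging and stress. This integrated stress response (ISR) matters to plasma cells because they secrete large amounts of protein.

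The binding sites of ATF4 with C/EBP partners often read TGATGNAA. These letters were searched on both strands in the 250 bases before the start site of each gene in the RefSeq promoter set (GRCh38.p14), and the genes below are shown because they carry a match and rose with HFG. Of the ISR signalling genes 4 of 27 (14.8%) held a match, of the amino acid and one-carbon synthesis genes 4 of 17 (23.5%), of the cytosolic tRNA synthetase genes 2 of 20 (10%) and of the amino acid transporters 1 of 19 (5.26%), against 113 of 8719 (1.3%) for all tested genes with an entry and 870 of 27305 (3.19%) for the whole set. Capitals mark the match, and sequences run 5′ to 3′ on the strand of the gene. CHAC1, ASNS and AARS1 are given as the 30 bases around the match because annotated transcripts begin upstream of it, and ATF3 (chr1:212565157-212565333, plus strand) up to its first annotated exon.
ATF3: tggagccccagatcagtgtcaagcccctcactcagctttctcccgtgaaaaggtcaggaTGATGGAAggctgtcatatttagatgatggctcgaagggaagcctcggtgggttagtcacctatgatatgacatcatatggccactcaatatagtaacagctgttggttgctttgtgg
CHAC1 (chr15:40953251-40953280, plus strand): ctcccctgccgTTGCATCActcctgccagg
ASNS (chr7:97872458-97872487, minus strand): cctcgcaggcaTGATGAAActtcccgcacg
AARS1 (chr16:70289675-70289704, minus strand): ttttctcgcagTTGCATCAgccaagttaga
The match lay at -191, -209, -68 and -187 from the start site in ATF3, CHAC1, ASNS and AARS1. MTHFD1L (log2 fold change -0.38 ± 0.093, adjusted p = 0.00272) and BCAT1 (-0.52 ± 0.16, adjusted p = 0.0115), chosen here because they also carry a match, fell, so a match did not go with one direction. GOT1, which carries one too, had a log2 fold change of -0.25 ± 0.08 (adjusted p = 0.0154), and its call was lost with GC and length offsets (adjusted p = 0.0624) and without the second DMSO or the second HFG library (adjusted p = 0.0695 and 0.0662).

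Library totals were 2913987 to 3183765 counts with DMSO, 2353907 to 5761682 with HFG, 3139688 to 4067217 with halofuginol and 2500293 to 2941268 with NCP26. The first NCP26 library stood apart, with 15581 genes detected at the lowest NCP26 total against 13577 and 13636 in the other 2. Plasma cell markers summed to 1.003e+04 to 1.031e+04 CPM (counts scaled to library size, with TMM factors) with DMSO and 4781 to 4860 with HFG, while markers of T cells, myeloid, stromal and erythroid cells each summed to at most 4.503 CPM in any of these libraries. Fold changes correlated with the GC content of transcripts (Pearson r -0.32 across 10578 genes, which are not independent replicates) and with log2 transcript length (r 0.25), so calls that a GC or length correction ended or added are given beside the genes concerned. Less of an mRNA in every cell and fewer cells that express it cannot be told apart in these bulk samples of a single line.

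HFG changed a large share of the measured transcriptome within 6 h. Against DMSO 5827 of 10737 genes passed an adjusted p of 0.05 in edgeR's quasi-likelihood test (54.3%), of which 2972 (27.7%) were higher and 2855 (26.6%) lower with HFG. At least a 2-fold change was called for 605 genes upward (5.63%) and 374 downward (3.48%), and for 6492 genes (60.5%) the libraries of the 2 groups did not overlap. Lack of overlap alone therefore does not single out a gene against DMSO. TMM scaling sets the centre of the distribution, and the median over all tested genes was 0.01 on the log2 scale. Falls were frequent among abundant mRNAs: of 121 genes with a mean above 1000 CPM, 111 were lower and 5 higher, while of 1625 genes at 10 CPM or less 187 were lower and 335 higher.

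**Figure D1:**
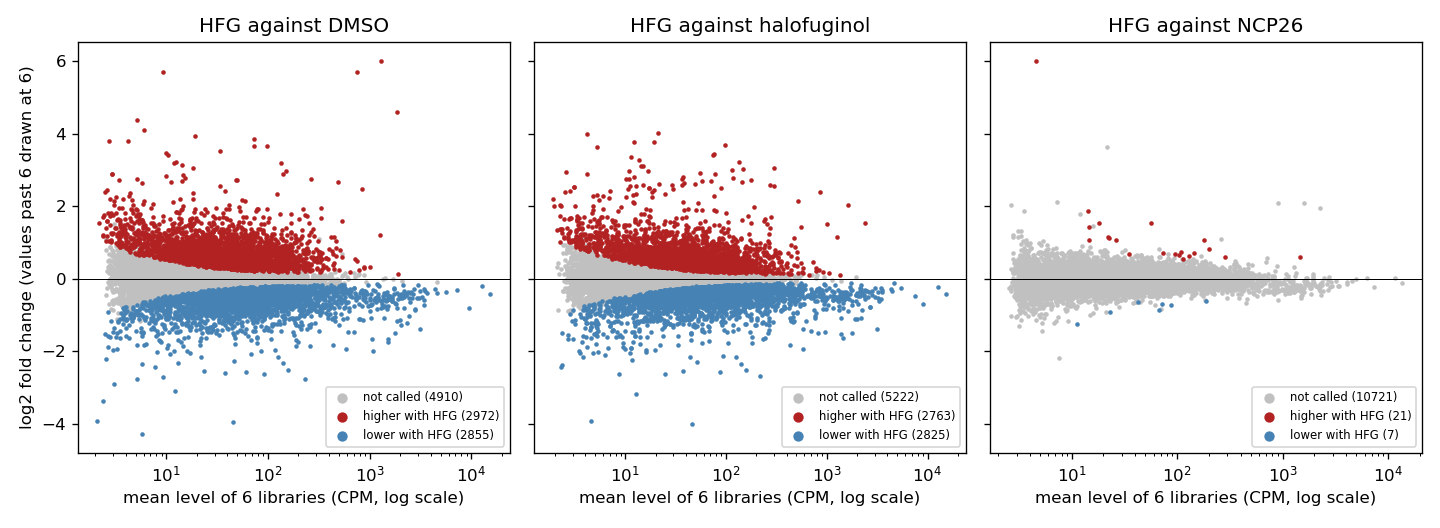
Mean level of each gene over the 6 libraries of a comparison (CPM, log scale) against its log2 fold change for HFG against DMSO, halofuginol and NCP26, with 1 point per gene. Genes past an adjusted p of 0.05 are red where higher with HFG and blue where lower, 5827 against DMSO, 5588 against halofuginol and 28 against NCP26.

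EPRS1, the target, stood at 297, 313 and 326 CPM with DMSO and at 403, 385 and 368 CPM with HFG. The groups did not overlap, as in 60.5% of all tested genes. The log2 fold change of EPRS1 was 0.30 ± 0.069 (SE, n = 3 and 3, adjusted p = 0.00175). Correction for GC content lowered it to 0.12 (adjusted p = 0.0753), past the threshold no longer. PARS2, which charges proline tRNA in mitochondria, had 6.7, 10.5 and 6.89 CPM with DMSO and 6.12, 6.62 and 6.22 CPM with HFG (log2 fold change -0.34, 95% interval -0.86 to 0.18, adjusted p = 0.254).

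ISR signalling genes moved mostly upward. Of 28 tested, 18 were higher and 5 lower (82.1% called against 54.3% of all genes), with a median log2 fold change of 0.53 against 0.01. The range over the alternative analyses was 15 to 20 higher and 4 to 6 lower. ATF4 itself, which is controlled mainly at translation, had 490, 492 and 461 CPM with DMSO and 472, 502 and 465 CPM with HFG. Its mRNA levels overlapped between the groups, and the log2 fold change was -0.01 (95% interval -0.14 to 0.13, adjusted p = 0.944). With the GC correction the sign turned and ATF4 was called higher, at 0.13 (adjusted p = 0.0397), but not with a replicate block added (adjusted p = 0.0554). With GC and length offsets it was called higher at 0.24 (adjusted p = 0.000188).

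Transcription factors that act with or after ATF4 changed more, and upward. ATF3, a stress-induced partner and repressor, went from 16, 14.5 and 12.1 CPM with DMSO to 180, 188 and 173 CPM with HFG. That is a log2 fold change of 3.66 ± 0.11 (SE, n = 3 and 3, adjusted p = 9.34e-13). DDIT3, which encodes the pro-apoptotic factor CHOP, had 77.6, 75.7 and 72.4 CPM with DMSO and 306, 240 and 239 CPM with HFG, and every HFG library was above every DMSO library (log2 fold change 1.79 ± 0.1, adjusted p = 1.41e-09). TRIB3, a pseudokinase that restrains ATF4 and CHOP, had 110, 97 and 112 CPM against 240, 232 and 225 CPM (1.12 ± 0.08, adjusted p = 1.94e-08). Its groups did not overlap either, but neither did those of 60.5% of all tested genes.

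Secreted and signalling products of the pathway followed the same direction. INHBE, an activin subunit, had 33.8, 30.7 and 34.5 CPM with DMSO and 100, 99.8 and 90.5 CPM with HFG (log2 fold change 1.54 ± 0.097, adjusted p = 5.43e-09). STC2, the secreted glycoprotein stanniocalcin 2, had 16, 9.8 and 10 CPM against 62.4, 72.5 and 58.2 CPM (2.41 ± 0.16, adjusted p = 1.21e-08). SESN2, a leucine sensor that restrains mTORC1, rose by a log2 fold change of 0.51 ± 0.087 (adjusted p = 0.00016). CHAC1, which degrades glutathione, had 13.7, 11.1 and 10.7 CPM with DMSO and 18.8, 18 and 16.3 CPM with HFG. Its groups did not overlap, but the change was small (0.55 ± 0.17, adjusted p = 0.0135) and was not called by the DESeq2 Wald test (adjusted p = 0.0678) or without the second or the third DMSO library (adjusted p = 0.0545 and 0.0521).

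The gene of the uncharged tRNA sensor GCN2 moved little, and that of its activator GCN1 fell. EIF2AK4 (GCN2) had a log2 fold change of 0.32 ± 0.11 (adjusted p = 0.0285), a call that was lost in 6 of 14 alternative analyses, with adjusted p of 0.0536 to 0.123. GCN1, which activates GCN2 on the ribosome, had 268, 249 and 259 CPM with DMSO and 146, 185 and 184 CPM with HFG (-0.59 ± 0.088, adjusted p = 4.34e-05). DDIT4, an mTORC1 inhibitor that other stresses induce, went against the group, from 827, 818 and 786 CPM to 393, 382 and 384 CPM (-1.07 ± 0.059, adjusted p = 1.14e-09).

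**Figure D2:**
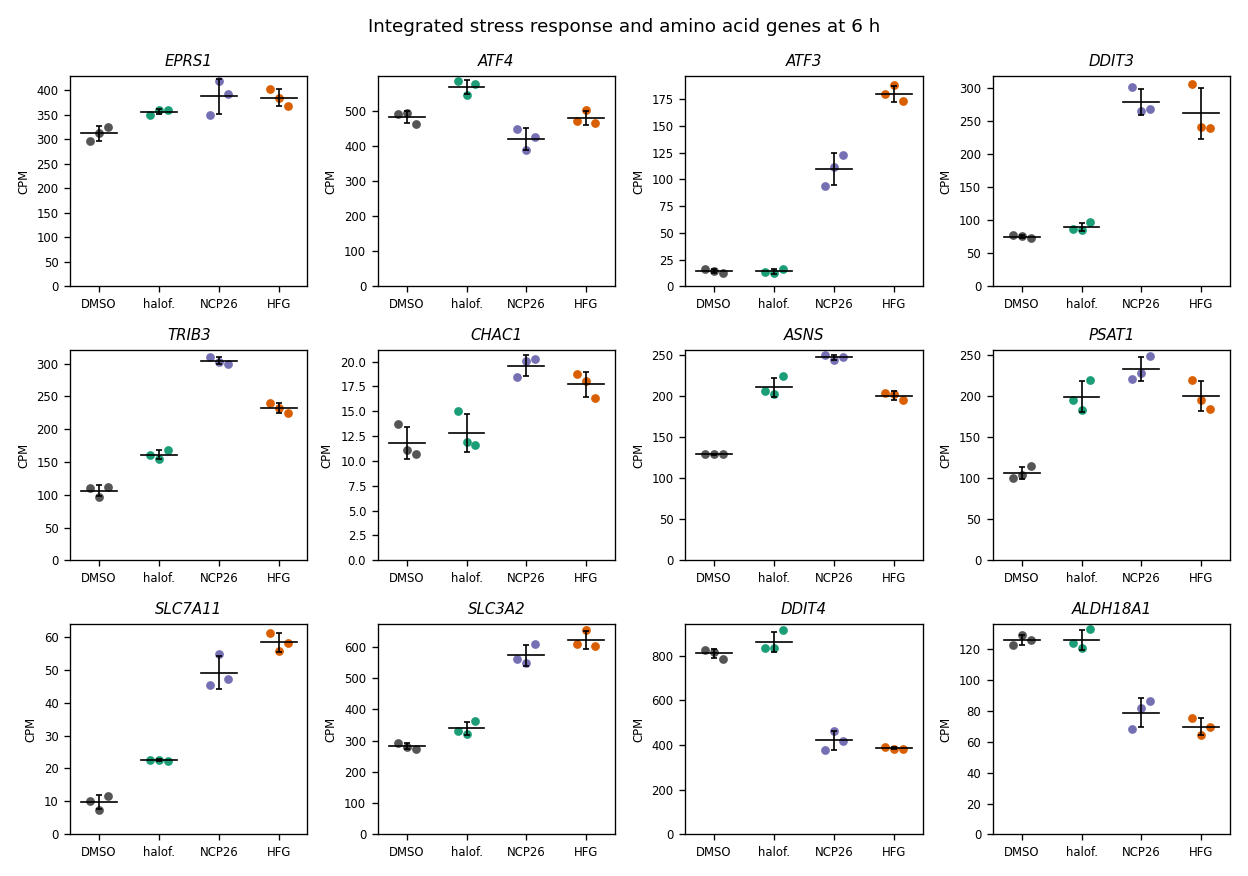
Levels in CPM of 12 genes in the 3 libraries each of DMSO, halofuginol (halof.), NCP26 and HFG at 6 h, with dots for libraries, lines for means and bars for SD. ATF4 levels with DMSO and HFG overlap, ATF3, DDIT3, TRIB3 and SLC7A11 stand higher with HFG than with DMSO or halofuginol, and ASNS and PSAT1 stand at similar levels with halofuginol and HFG.

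Amino acid transporters rose as a group, with 11 of 19 higher and 3 lower (73.7% called against 54.3% of all genes) and a median of 0.39. SLC7A11, the cystine-glutamate exchanger, was at 10.2, 7.43 and 11.7 CPM with DMSO and at 61.2, 55.6 and 58.2 CPM with HFG (2.57 ± 0.15, adjusted p = 1.93e-09). SLC3A2, the heavy chain that it and other exchangers need, went from 291, 281 and 273 CPM to 608, 654 and 604 CPM (1.14 ± 0.066, adjusted p = 1.82e-09). In both genes the lowest HFG library exceeded the highest DMSO library by a wide margin. SLC6A9, a glycine transporter, had a log2 fold change of 1.06 ± 0.15 (adjusted p = 3.09e-05), and SLC38A5, a glutamine transporter, fell from 208, 209 and 200 CPM to 109 CPM in all 3 HFG libraries (-0.92 ± 0.073, adjusted p = 6.38e-08).

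Enzymes of amino acid and one-carbon synthesis split, with 9 of 25 higher, 12 lower and a median of -0.22. Their called share was 84%, against 54.3% of all genes. Of the members that rose, those named here make serine, cysteine and asparagine, and the others are not described. ASNS, asparagine synthetase, had 129, 129 and 130 CPM with DMSO and 204, 203 and 195 CPM with HFG (0.63 ± 0.072, adjusted p = 2.88e-06). PSAT1 had 101, 104 and 115 CPM against 220, 196 and 184 CPM (0.90 ± 0.087, adjusted p = 5.22e-07), and its serine pathway neighbours PHGDH (0.65 ± 0.099, adjusted p = 5.02e-05) and PSPH (0.95 ± 0.13, adjusted p = 1.53e-05) rose too. CTH and CBS, which pass sulfur from methionine to cysteine, rose by log2 fold changes of 1.30 ± 0.17 (adjusted p = 9.65e-06) and 1.09 ± 0.11 (adjusted p = 8.99e-07). Of the sampled 31-mers of ASNS 47.8% occur in transcripts of other annotated genes, so its reads may in part be shared.

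The 2 proline synthesis genes examined gave no rise in the uncorrected test. ALDH18A1, which makes the glutamate semialdehyde precursor of proline, had 123, 129 and 126 CPM with DMSO and 75.4, 64.3 and 69.4 CPM with HFG (-0.86 ± 0.085, adjusted p = 5.77e-07). PYCR1, the last step, had 125, 125 and 109 CPM against 106, 123 and 104 CPM, with overlap and an interval of -0.31 to 0.08 (adjusted p = 0.307). With the GC offset PYCR1 turned to 0.14 (adjusted p = 0.111), and with GC and length offsets it was called higher at 0.17 (adjusted p = 0.0371). MTHFD2, a mitochondrial folate enzyme that often moves with ATF4, had 398, 421 and 431 CPM against 412, 389 and 381 CPM (interval -0.22 to 0.06, adjusted p = 0.297). The GC offset moved MTHFD2 to -0.31 (adjusted p = 8.71e-05) and GC and length offsets to -0.35 (adjusted p = 9.93e-06), both called lower. GLUL, glutamine synthetase, fell from 36.7, 39.2 and 36.5 CPM to 14.9, 13.2 and 13.1 CPM (-1.47 ± 0.13, adjusted p = 2.38e-07).

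Cytosolic tRNA synthetases and their cofactors showed 11 of 24 higher and 5 lower (66.7% called against 54.3% of all genes), with a median of 0.19. CARS1 (0.83 ± 0.12, adjusted p = 2.36e-05), GARS1 (0.79 ± 0.06, adjusted p = 3.98e-08) and AARS1 (0.67 ± 0.071, adjusted p = 1.1e-06), the cysteine, glycine and alanine enzymes, rose most. GARS1 had 380, 374 and 370 CPM with DMSO and 653, 649 and 636 CPM with HFG. FARSA, a phenylalanine enzyme subunit, fell from 193, 186 and 161 CPM to 90.7, 110 and 101 CPM (-0.84 ± 0.092, adjusted p = 1.74e-06). In their mitochondrial counterparts 2 of 17 were higher and 5 lower, which at 41.2% called is below the share of all genes.

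The machinery for making proteins fell broadly. All 79 tested cytosolic ribosomal protein mRNAs were lower, by log2 fold changes of -1.14 to -0.25 with a median of -0.52. Their summed level was 1.28e+05 to 1.396e+05 CPM with DMSO and 9.168e+04 to 9.682e+04 CPM with HFG. With a correction for GC content and transcript length, chosen after a trend with length was seen, 62 stayed lower and 4 were higher, with a median of -0.27. RPS15 had the largest fall, from 1188, 1253 and 1084 CPM to 537, 541 and 526 CPM (-1.14 ± 0.063, adjusted p = 1.12e-09). Translation factors had 18 of 37 lower and 6 higher, and EIF5A, which helps ribosomes through runs of proline, fell from 760, 784 and 701 CPM to 347, 352 and 342 CPM (-1.11 ± 0.064, adjusted p = 1.9e-09). Ribosome biogenesis factors had 21 of 37 lower and 4 higher with a median of -0.32. The called shares were 64.9% of translation factors and 67.6% of ribosome biogenesis factors, against 54.3% of all genes. Many genes of the protein-making machinery are among the most abundant, where falls were frequent, and the part of abundance in their change was not tested.

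Nuclear-encoded respiratory chain subunits fell in 37 of 38 (97.4% called against 54.3% of all genes), with a median of -0.53. After the length correction 31 were lower. ATP5MC1, a subunit of the ATP synthase ring, went from 167, 156 and 142 CPM to 78.1, 78.9 and 75.3 CPM (-1.01 ± 0.083, adjusted p = 9.69e-08). Mitochondrially encoded mRNAs fell less, 10 of 13 (76.9% called) with a median of -0.25. Over the alternative analyses 6 to 13 were lower and 0 to 2 higher.

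**Figure D3:**
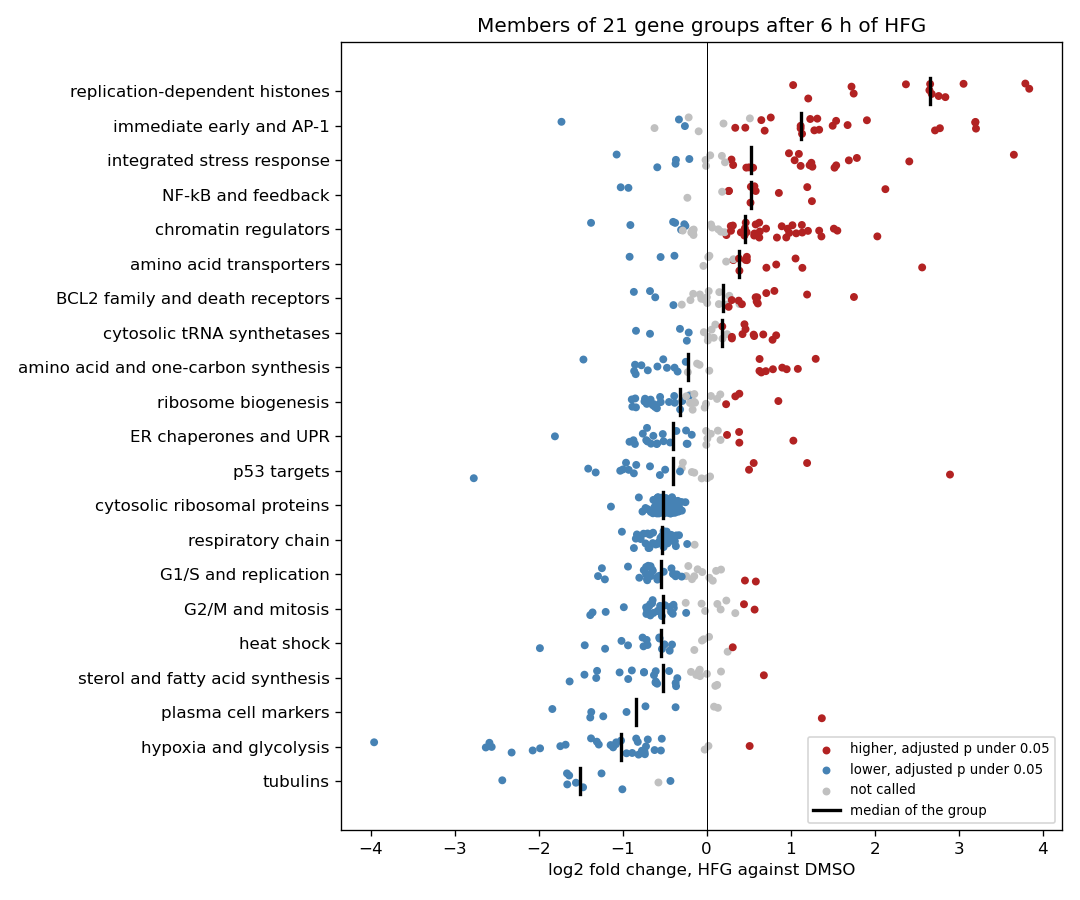
Log2 fold change of HFG against DMSO (horizontal axis) for the tested members of 21 gene groups, with 1 dot per gene, red for higher and blue for lower at an adjusted p under 0.05, grey for not called, and a black bar at the median. All 13 replication-dependent histones lie right of 0, all 79 ribosomal proteins lie left of it before any length correction (62 lower and 4 higher after it), and the ISR group has its median at 0.53.

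Hypoxia and glycolysis genes had the lowest median of the groups with at least 20 tested genes, at -1.02. Of 33 tested 30 were lower and 1 higher (93.9% called against 54.3% of all genes). HILPDA, a lipid droplet protein induced by hypoxia-inducible factors (HIF), had 87.8, 84.1 and 82.4 CPM with DMSO and 4.97, 4.76 and 6.07 CPM with HFG (-3.96 ± 0.13, adjusted p = 2.7e-12). ANKRD37, another HIF target, had 163, 158 and 152 CPM against 24.9, 27.5 and 24.4 CPM (-2.63 ± 0.092, adjusted p = 3.91e-12). SLC2A1, the glucose transporter GLUT1, had 66.7, 64.2 and 64.8 CPM against 12.6, 7.68 and 12.1 CPM (-2.58 ± 0.15, adjusted p = 1.62e-09). PFKFB4, which regulates the pace of glycolysis, fell in the same way, from 108, 99 and 104 CPM to 15.7, 18.8 and 17.7 CPM (-2.56 ± 0.1, adjusted p = 2.51e-11). In each of these 4 genes the groups lay far apart. VEGFA, the angiogenic growth factor and a HIF target too, was the exception, with 154, 168 and 159 CPM against 217, 237 and 232 CPM (0.51 ± 0.075, adjusted p = 3.24e-05).

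HIF binds sites with the core ACGTG. In the same 250 bases 13 of 30 promoters of this group (43.3%) held ACGTG on either strand, against 2117 of 8719 (24.3%) for all tested genes and 5101 of 27305 (18.7%) for the whole set. A match is a description of these letters and not a mapped binding site. The stretch before the RefSeq start of ANKRD37 (GRCh38.p14, chr4:185396591-185396810, plus strand), which lies in the first intron of longer annotated transcripts of the gene, is shown because it holds 3 matches, of which a pair overlaps on opposite strands, and capitals mark them.
ANKRD37: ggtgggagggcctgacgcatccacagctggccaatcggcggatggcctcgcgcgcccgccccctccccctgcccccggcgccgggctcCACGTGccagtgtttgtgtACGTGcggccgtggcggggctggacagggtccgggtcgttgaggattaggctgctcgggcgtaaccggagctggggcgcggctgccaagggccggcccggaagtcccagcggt

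Replication-dependent histone genes moved in the opposite direction. Replication-dependent histone mRNAs end in a stem loop rather than a poly(A) tail, so poly(A) selection captures only the small tailed fraction. Of 58 family members 24 were in the deposited table, and 13 of these passed the count filter. All 13 were higher (100% called against 54.3% of all genes, of which 27.7% were higher), with a median of 2.66. A member that is high only with HFG could pass the filter through that group alone, so this count says nothing of the members below it. With no filter 23 were tested, of which 19 were higher and 0 lower. Of all 16312 genes tested that way 3151 were higher and 2913 lower. H2BC11 had 7.98, 8.78 and 12.1 CPM with DMSO and 141, 130 and 142 CPM with HFG (3.84 ± 0.13, adjusted p = 2.18e-12). H4C8 had 3.51, 5.41 and 2.76 CPM against 28.7, 37.1 and 31.9 CPM (3.06 ± 0.21, adjusted p = 1.62e-08). H1-4 was near 0 with DMSO, at 0.958, 0.338 and 0.345 CPM, and at 4.59, 10.6 and 8.4 CPM with HFG (3.79 ± 0.49, adjusted p = 9.78e-06). Among replication-independent histone genes, with ordinary tails, 2 of 8 were higher and 4 lower (75% called against 54.3% of all genes). Their median was -0.28, and the lowest value was -0.88. H3-3B was higher, from 248, 276 and 283 CPM to 828, 796 and 800 CPM (1.59 ± 0.068, adjusted p = 4.39e-11). Whether longer tails or more histone mRNA underlie the counts was not tested.

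Cell cycle genes fell while replication-dependent histones rose. Among G1/S and replication genes 26 of 38 were lower and 2 higher with a median of -0.54. Among G2/M genes 24 of 34 were lower and 2 higher with a median of -0.51. The called shares were 73.7% and 76.5%, against 54.3% of all genes. PCNA, the replication clamp, went from 278, 288 and 286 CPM to 126, 111 and 113 CPM (-1.29 ± 0.076, adjusted p = 2.38e-09). MCM5, a helicase subunit, and TTK, a spindle checkpoint kinase, fell too, with log2 fold changes of -1.25 ± 0.083 (adjusted p = 9.72e-09) and -1.38 ± 0.14 (adjusted p = 1.06e-06). CENPE, a kinetochore motor, was the largest called rise in the G2/M group (0.57 ± 0.12, adjusted p = 0.00117), but the call was lost with the GC correction (0.17, adjusted p = 0.203). CDKN1A, the cell cycle inhibitor p21, did not rise with this fall but dropped from 426, 418 and 380 CPM to 62.8, 64.6 and 53.7 CPM (-2.77 ± 0.089, adjusted p = 1.64e-12).

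The p53 targets, CDKN1A among them, were lower in 13 of 24 and higher in 4, with a median of -0.40. Of these targets 70.8% were called against 54.3% of all genes. GADD45B, a stress gene that other pathways induce as well, rose from 36.7, 31.4 and 32.4 CPM to 254, 244 and 254 CPM (2.90 ± 0.089, adjusted p = 9.41e-13). PMAIP1, the BH3-only killer NOXA and also a target of the ISR, rose from 23.9, 27.4 and 24.8 CPM to 71.2, 51.9 and 54.4 CPM (1.20 ± 0.14, adjusted p = 2.46e-06).

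In the BCL2 family and death receptors 12 of 30 were higher and 4 lower, with a median of 0.20, and the 53.3% called is close to the 54.3% of all genes. HRK, another BH3-only gene, was low, at 3.19, 0.338 and 3.45 CPM with DMSO and 9.18, 5.56 and 9.02 CPM with HFG (1.75 ± 0.41, adjusted p = 0.00214). BCL2L11, which encodes the BH3-only protein BIM, fell (-0.61 ± 0.077, adjusted p = 8.17e-06), without overlap between the groups, as in 60.5% of all tested genes. The death receptor gene TNFRSF10B was not called (interval -0.16 to 0.18, adjusted p = 0.945). MCL1, on which myeloma cells depend, had 1250, 1299 and 1475 CPM with DMSO and 1433, 1300 and 1305 CPM with HFG. These levels overlapped, and the interval of its log2 fold change was -0.13 to 0.14 (adjusted p = 0.976). BCL2 (interval -0.23 to 0.10, adjusted p = 0.519) and BBC3, which encodes PUMA (interval -0.57 to -0.02, adjusted p = 0.0623), were not called either. BCL2 was called lower with the GC offset (-0.16, adjusted p = 0.0474) and with GC and length offsets (-0.26, adjusted p = 0.00108). BBC3 was called lower with no filter (adjusted p = 0.0267) and without the third DMSO or the second HFG library (adjusted p = 0.0131 and 0.014), and stood at 0.07 with GC and length offsets.

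Central transcription factors of plasma cells fell. POU2AF1, a B-lineage coactivator, had 689, 675 and 685 CPM with DMSO and 167, 203 and 203 CPM with HFG (-1.84 ± 0.078, adjusted p = 4.3e-11). IRF4, the factor on which myeloma survival rests, had 287, 303 and 333 CPM against 114, 122 and 120 CPM (-1.37 ± 0.078, adjusted p = 1.66e-09). MYC, its partner in a positive loop, had 401, 408 and 420 CPM against 179, 174 and 179 CPM (-1.21 ± 0.067, adjusted p = 1.22e-09). PRDM1, the plasma cell repressor BLIMP1, fell less (-0.95 ± 0.092, adjusted p = 5.2e-07). In none of these did the groups overlap, but that held for 60.5% of all tested genes. BCL6, which PRDM1 represses, was low and rose from 2.87, 1.01 and 2.07 CPM to 5.36, 7.15 and 9.18 CPM (1.91 ± 0.36, adjusted p = 0.000335). Over the 26 tested factors of this group 10 were higher and 11 lower (80.8% called against 54.3% of all genes).

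On the cell surface the result depended on the antigen, with 5 of 21 higher and 8 lower (61.9% called against 54.3% of all genes). SDC1 (CD138), the antigen that defines plasma cells, had 3444, 3377 and 3006 CPM with DMSO and 1300, 1422 and 1471 CPM with HFG (-1.23 ± 0.06, adjusted p = 2.49e-10). TNFRSF17 (BCMA), a target of myeloma therapy, had 147, 156 and 160 CPM against 98.3, 96.3 and 86.5 CPM (-0.73 ± 0.082, adjusted p = 2.41e-06). SLAMF7, the target of elotuzumab, went the other way, from 154, 154 and 152 CPM to 412, 389 and 392 CPM (1.37 ± 0.069, adjusted p = 3.95e-10). JCHAIN, the joining chain of secreted antibody, had 4260, 4575 and 4732 CPM against 1815, 1705 and 1683 CPM (-1.38 ± 0.049, adjusted p = 4.42e-12). PIM2, a survival kinase high in myeloma, had 1114, 1079 and 1012 CPM against 474, 515 and 498 CPM (-1.11 ± 0.061, adjusted p = 1.12e-09). Of the 3 PIM kinase genes 2 were lower and 1 higher (100% called).

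**Figure D4:**
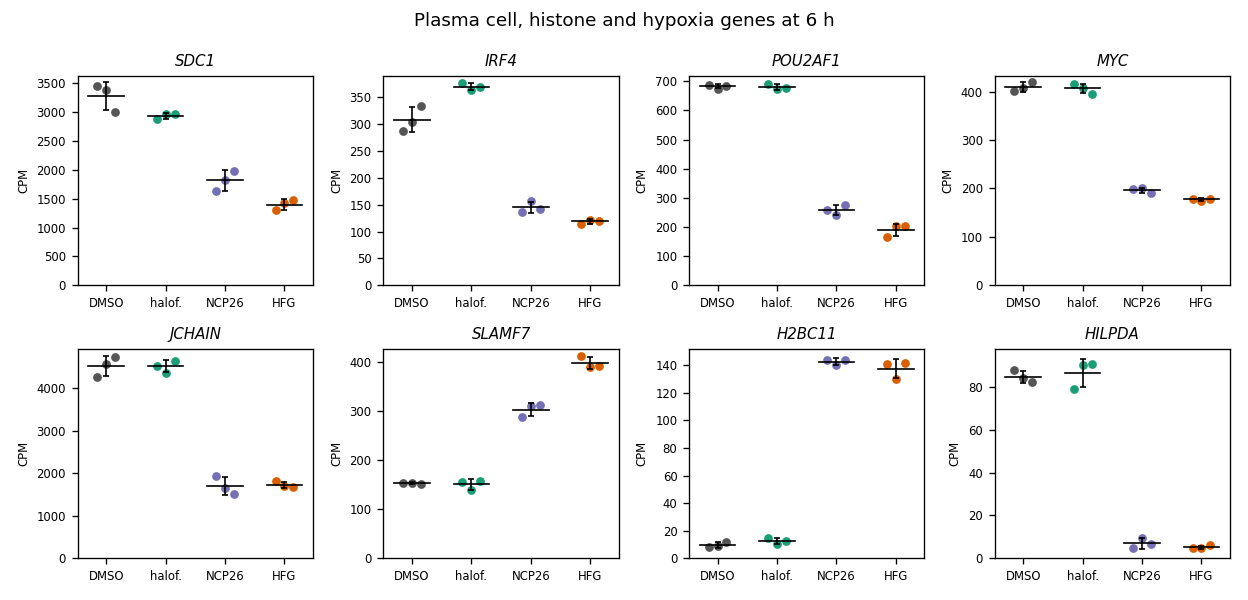
Levels in CPM of 8 genes in the 3 libraries each of DMSO, halofuginol (halof.), NCP26 and HFG at 6 h, with dots for libraries, lines for means and bars for SD. SDC1, IRF4, POU2AF1, MYC, JCHAIN and HILPDA stand lower and SLAMF7 and H2BC11 higher with HFG than with DMSO, and halofuginol lies much closer to DMSO than to HFG.

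Chaperones fell rather than rose. Endoplasmic reticulum (ER) chaperones and unfolded protein response genes had 20 of 30 lower and 4 higher with a median of -0.40, and HSPA5 (BiP), their main chaperone, went from 1189, 1238 and 1214 CPM to 714, 726 and 713 CPM (-0.76 ± 0.053, adjusted p = 1.43e-08). DERL3, a factor of ER-associated degradation, fell from 81.1, 71.3 and 68.6 CPM to 17.2, 22.5 and 22.2 CPM (-1.81 ± 0.12, adjusted p = 9.98e-09), and 71.1% of its sampled 31-mers occur in other genes. Heat shock genes had 15 of 22 lower and 1 higher, led by HSPA8, the constitutive cytosolic chaperone, with 1757, 1773 and 1644 CPM against 422, 463 and 424 CPM (-1.98 ± 0.06, adjusted p = 9.34e-13). Sterol and fatty acid synthesis genes had 18 of 28 lower and 1 higher, led by MSMO1, from 67, 77 and 71.4 CPM to 22.2, 25.7 and 21.9 CPM (-1.63 ± 0.11, adjusted p = 1.21e-08). Called were 80% of the ER group, 72.7% of heat shock genes and 67.9% of sterol and fatty acid genes, against 54.3% of all genes.

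Immediate early and AP-1 genes, which encode short-lived mRNAs for fast transcription responses, rose in 21 of 29 and fell in 3, with a median of 1.12. Their called share was 82.8%, against 54.3% of all genes. JUN had 29.1, 23.3 and 26.9 CPM with DMSO and 250, 229 and 252 CPM with HFG (3.20 ± 0.098, adjusted p = 9.41e-13). The orphan receptors NR4A2 (3.21 ± 0.3, adjusted p = 3.83e-07) and NR4A3 (3.20 ± 0.27, adjusted p = 1.03e-07) rose from at most 4.47 CPM. KLF2, a quiescence factor, fell from 27.1, 31.4 and 40 CPM to 10.7, 8.47 and 10.4 CPM (-1.73 ± 0.18, adjusted p = 8.43e-07). Genes of NF-κB and its feedback rose in 10 of 14 and fell in 2 (85.7% called). Among them NFKBIZ had a log2 fold change of 2.13 ± 0.23 (adjusted p = 1.58e-06) and the feedback inhibitor TNFAIP3 one of -1.02 ± 0.073 (adjusted p = 1.99e-08).

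Chromatin regulators had 32 of 50 higher and 7 lower (78% called against 54.3% of all genes) with a median of 0.46. ATAD2B (2.03 ± 0.12, adjusted p = 3.51e-09), the histone demethylase KDM6B (1.56 ± 0.1, adjusted p = 1.04e-08) and the acetyltransferase CREBBP (1.34 ± 0.1, adjusted p = 3.32e-08) rose. CREBBP had 53.3, 51.3 and 46.9 CPM with DMSO and 111, 133 and 137 CPM with HFG. NR3C1, the receptor for glucocorticoids used in myeloma therapy, rose from 89.7, 93.6 and 116 CPM to 255, 226 and 244 CPM (1.27 ± 0.095, adjusted p = 3.32e-08).

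Among other named genes, whose libraries did not overlap and averaged 5 CPM or more, large rises were those of DUSP8, a phosphatase of stress kinases, from 3.83, 1.01 and 2.07 CPM to 36, 35.7 and 36.6 CPM (3.93 ± 0.24, adjusted p = 3.64e-09), and IL10RA, the interleukin 10 receptor, from 8.94, 12.2 and 11 CPM to 129, 137 and 140 CPM (3.66 ± 0.12, adjusted p = 1.64e-12). The Notch effector HES1 (3.46 ± 0.33, adjusted p = 4.47e-07) and the cytokine inhibitor SOCS3 (3.42 ± 0.28, adjusted p = 8.32e-08) rose from at most 2.55 CPM. Large falls by the same rule were those of CHST4, a sulfotransferase, from 9.58, 13.2 and 10.7 CPM to 0, 0.529 and 0.778 CPM (-4.28 ± 0.41, adjusted p = 4e-07), JAKMIP1 (-3.10 ± 0.25, adjusted p = 6.31e-08), SFN, the p53 target 14-3-3 sigma (-2.71 ± 0.24, adjusted p = 2.46e-07), and TNFRSF10D, a decoy receptor for TRAIL (-2.55 ± 0.15, adjusted p = 2.23e-09). TNFRSF10D had 39.9, 40.9 and 40.7 CPM with DMSO and 6.12, 6.35 and 7.62 CPM with HFG.

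Some of the largest fold changes upward came from genes that also varied widely inside other groups. The unnamed gene ENSG00000269339 was listed at 0 in all 3 DMSO libraries and stood at 1169, 3732 and 2836 CPM with HFG, but ran from 10.8 to 1364 CPM with NCP26 and from 256 to 1309 CPM with halofuginol. ITPRIPL2 had 29.7, 7.43 and 48.9 CPM with DMSO and 760, 1982 and 1691 CPM with HFG (5.69 ± 0.4, adjusted p = 1.72e-08), but 145 to 1044 CPM with halofuginol, 63 to 690 CPM with NCP26, 33.4 to 637 CPM with the proteasome inhibitor carfilzomib and 1060 to 1181 CPM with NCP22, another ProRS inhibitor. PPIP5K2 (4.59 ± 0.37, adjusted p = 7.66e-08), ARHGEF33 (5.70 ± 0.6, adjusted p = 1.24e-06) and SLC1A1 (4.09 ± 0.66, adjusted p = 9.02e-05) showed the same kind of spread, with ranges of 415 to 2509, 2.14 to 14.2 and 1.83 to 8.07 CPM among the 3 halofuginol libraries. The levels of these 4 named genes thus differed by more than 4-fold between replicates of 1 group. NARS2 (95.3, 1006 and 433 CPM with HFG against 308, 80.4 and 90 CPM with DMSO) and MAF (1.15, 18.8 and 6.22 CPM against 5.43, 1.35 and 1.72 CPM) overlapped between the groups although called (adjusted p = 0.0197 and 0.0454), and both calls were lost in 6 alternative analyses. RGPD2 (-2.76 ± 0.47, adjusted p = 0.000135) shares 98.2% of its sampled 31-mers with other genes, and reads can be split among near-identical copies.

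HFG against halofuginol compares the ketone compound with its alcohol analogue at the same dose and time. The paper reports weaker binding of halofuginol than of HFG to ProRS, and relates its grouping with the solvent control to lower or absent potency. Differences in chemistry and in potency therefore cannot be told apart in this comparison. The difference was nearly as wide as that from DMSO: 5588 of 10810 genes were called (51.7%), 2763 higher with HFG (25.6%) and 2825 lower (26.1%), 426 of them at least 2-fold higher (3.94%) and 291 at least 2-fold lower (2.69%). The comparison shares its HFG libraries with the one against DMSO, so each is given by its own values. By group, 25 of 28 ISR genes were called (89.3% against 51.7% of all genes), 17 higher and 8 lower. Of 33 hypoxia and glycolysis genes 30 were lower and 1 higher. Amino acid transporters had 6 of 19 higher and 5 lower (57.9%, median 0.02 against 0.39 in the DMSO comparison). Cytosolic tRNA synthetases had 8 of 24 higher and 5 lower (54.2%, median 0.05 against 0.19 there). All 14 tested replication-dependent histones were higher, but a member high only with HFG could pass the filter through that group alone. With no filter 23 were tested, of which 17 were higher and 0 lower. Of all 16428 genes tested that way 2880 were higher and 2890 lower. All 79 ribosomal proteins and all 38 respiratory chain subunits were lower with HFG, and after the GC and length correction 64 of the ribosomal proteins were lower and 1 higher.

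With halofuginol ATF3 stood at 13.4, 12.3 and 16.5 CPM, JUN at 29, 22 and 27.4 CPM and HILPDA at 78.8, 90.1 and 90.7 CPM. HFG exceeded halofuginol in ATF3 by a log2 fold change of 3.68 ± 0.097 (adjusted p = 1.15e-14), in JUN by 3.22 ± 0.089 (adjusted p = 1.71e-14), in DUSP8 by 3.78 ± 0.19 (adjusted p = 6.75e-11), in NR4A2 by 3.77 ± 0.26 (adjusted p = 2.42e-09), in H2BC11 by 3.45 ± 0.11 (adjusted p = 6.82e-14) and in IL10RA by 3.40 ± 0.1 (adjusted p = 5.4e-14). It was below halofuginol in HILPDA (-3.99 ± 0.13, adjusted p = 1.57e-13), JAKMIP1 (-3.17 ± 0.24, adjusted p = 9.07e-09), CDKN1A (-2.67 ± 0.082, adjusted p = 6.36e-14), TNFRSF10D (-2.62 ± 0.14, adjusted p = 1.43e-10), SFN (-2.61 ± 0.23, adjusted p = 7.61e-08) and ANKRD37 (-2.56 ± 0.083, adjusted p = 1.35e-13). ESPN was also among the largest differences (3.35 ± 0.61, adjusted p = 0.000203), yet its HFG libraries ran from 3.06 to 39.2 CPM and DMSO libraries from 3.38 to 17.9 CPM. Plasma cell genes were lower with HFG as well, IRF4 (-1.64 ± 0.056, adjusted p = 2.18e-13), POU2AF1 (-1.83 ± 0.065, adjusted p = 4.04e-13), MYC (-1.21 ± 0.052, adjusted p = 5.97e-12) and SDC1 (-1.08 ± 0.043, adjusted p = 1.81e-12).

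ASNS, PSAT1 and EPRS1 did not pass the threshold between the 2 compounds in the uncorrected test. ASNS had 206, 202 and 224 CPM with halofuginol, where HFG had 204, 203 and 195 CPM and DMSO 129, 129 and 130 CPM. The interval of the log2 difference between HFG and halofuginol was -0.20 to 0.05 (adjusted p = 0.279). With the GC offset ASNS was called lower with HFG (-0.15, adjusted p = 0.0273), as it was with GC and length offsets (-0.14, adjusted p = 0.0344). PSAT1, at 195, 183 and 220 CPM with halofuginol, had an interval of -0.16 to 0.15 (adjusted p = 0.969), and EPRS1 one of -0.01 to 0.21 (adjusted p = 0.105). MTHFD2 stood at 571, 558 and 566 CPM with halofuginol and was lower with HFG (-0.53 ± 0.048, adjusted p = 8.51e-08). ATF4 mRNA was likewise lower with HFG than with halofuginol, at 584, 544 and 575 CPM (-0.25 ± 0.05, adjusted p = 0.000466), a call that was lost with GC and length offsets (-0.09, adjusted p = 0.0766). TRIB3 (0.52 ± 0.058, adjusted p = 1.2e-06), INHBE (0.84 ± 0.087, adjusted p = 4.3e-07), SLC7A11 (1.36 ± 0.1, adjusted p = 6.39e-09) and DDIT3 (1.53 ± 0.089, adjusted p = 3.32e-10) were higher with HFG by increasing amounts. SLC7A11 stood at 22.6, 22.7 and 22.3 CPM with halofuginol, between its DMSO and HFG levels, while DDIT3 had 86.7, 85.7 and 97.2 CPM, close to DMSO. ALDH18A1, at 124, 121 and 133 CPM with halofuginol, was lower with HFG (-0.87 ± 0.075, adjusted p = 4.87e-08).

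HFG against NCP26 compares ProRS inhibitors of different sites and chemistry at the same dose and time. The paper reports that proline weakens the binding of HFG to ProRS and strengthens that of NCP26. Site, chemistry and potency therefore cannot be told apart here either. Here 28 of 10749 genes were called (0.260%), 21 higher with HFG (0.195%) and 7 lower (0.0651%), and 1416 had an unadjusted p under 0.05. At least a 2-fold change was called for 10 genes upward (0.0930%) and 1 downward (0.00930%). For 9971 genes (92.8%) the 95% interval of the log2 difference lay within a 2-fold change in either direction. This count rests on few libraries: without the first NCP26 library, which stood apart, 100 genes were called, without the second 7, without the third 19, and without the first, the second or the third HFG library 13, 5 and 6.

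Where HFG and NCP26 did differ, immediate early genes led, with 9 of 29 higher with HFG and 0 lower. That is 31% called, against 0.260% of all genes. Counts for this group ran from 4 to 15 higher and stayed at 0 lower over the alternative analyses, 10 without the first NCP26 library and 4 without the second or without the second HFG library. NR4A2 had 6.14, 5.25 and 7.4 CPM with NCP26 and 18.8, 24.6 and 24.1 CPM with HFG (1.86 ± 0.2, adjusted p = 0.00498). FOSL2, an AP-1 subunit, had 21.5, 29.7 and 35.4 CPM against 68.1, 90.8 and 93.2 CPM (1.55 ± 0.17, adjusted p = 0.00498). EGR1, a zinc finger factor of the growth factor response, had 9.6, 7.41 and 10.3 CPM against 31, 28.3 and 21.3 CPM (1.53 ± 0.21, adjusted p = 0.0131). In NR4A2, FOSL2 and EGR1 the lowest HFG library lay above the highest NCP26 library. The rule that named them required this separation, so it adds no support. NR4A3 (1.43 ± 0.19, adjusted p = 0.0131), NR4A1 (1.16 ± 0.15, adjusted p = 0.0117) and RGS2, a brake on G protein signalling (1.12 ± 0.14, adjusted p = 0.0117), followed by size. The read-through gene LY75-CD302, named after its values were seen, was listed at 0 in all NCP26 libraries and at 11.1, 9.26 and 7.31 CPM with HFG, but also at 0 in 1 library each of DMSO and halofuginol. The calls of NR4A2, FOSL2 and JUN held on leaving out each library in turn, while EGR1, NR4A1, NR4A3, RGS2 and ATF3 each lost theirs at least once. JUN had 93.6, 127 and 126 CPM with NCP26 against 250, 229 and 252 CPM with HFG (1.07 ± 0.11, adjusted p = 0.00498), and ATF3 had 94, 112 and 123 CPM against 180, 188 and 173 CPM (0.72 ± 0.1, adjusted p = 0.0206).

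Lower with HFG were KCNS3, a potassium channel subunit (17.7, 14.2 and 15.8 CPM with NCP26 against 6.12, 5.82 and 7.62 CPM, -1.23 ± 0.2, adjusted p = 0.0327), and the cytokine gene IL16 (92.9, 85.3 and 83.9 CPM against 39.4, 52.1 and 50.7 CPM, -0.86 ± 0.12, adjusted p = 0.0131). FAM107B (-0.73 ± 0.12, adjusted p = 0.0318), GAS7 (-0.70 ± 0.11, adjusted p = 0.0327) and the primase subunit PRIM1 (-0.63 ± 0.11, adjusted p = 0.0483) were 3 of the other 5. Each of these 5 calls was lost on leaving out some single library, IL16 on leaving out the second NCP26 library or the second or the third HFG library (adjusted p of 0.0605 to 0.104).

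**Figure D5:**
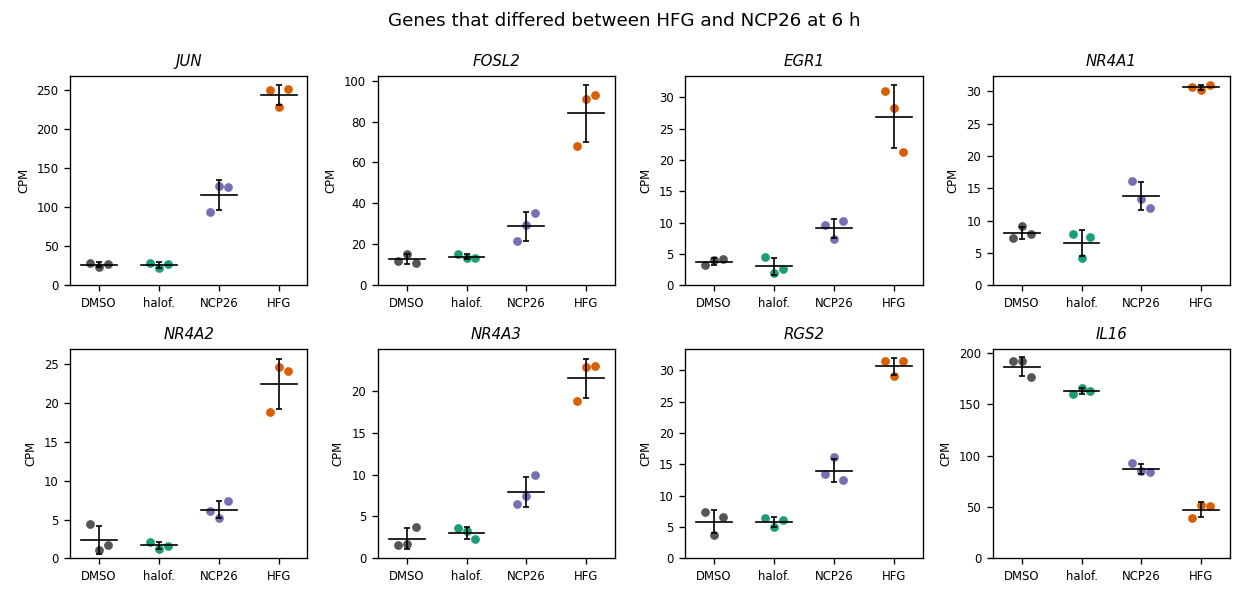
Levels in CPM of 8 genes in the 3 libraries each of DMSO, halofuginol (halof.), NCP26 and HFG at 6 h, with dots for libraries, lines for means and bars for SD. In JUN, FOSL2, EGR1, NR4A1, NR4A2, NR4A3 and RGS2 every HFG library lies above every NCP26 library, and in IL16 every HFG library lies below. FOSL2, EGR1, NR4A1, NR4A2, RGS2 and IL16 were named by a rule that required no overlap between these groups.

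Few ISR genes were called between HFG and NCP26. DDIT3 had 301, 265 and 268 CPM with NCP26 (interval of the log2 difference -0.34 to 0.16, adjusted p = 0.758). Of 28 ISR genes 2 were called (7.14% against 0.260% of all genes), ATF3 and EIF2AK3. EIF2AK3, which encodes the kinase PERK, was chosen after its value was seen and lost its call in 6 of 14 alternative analyses. TRIB3 (310, 302 and 300 CPM with NCP26, interval -0.57 to -0.21, adjusted p = 0.0851) and ASNS (250, 244 and 247 CPM, interval -0.48 to -0.12, adjusted p = 0.168) were above every HFG library with NCP26 without passing the threshold. Libraries of the 2 groups did not overlap in 2150 of the 10749 genes tested in this comparison. Such separation alone therefore does not single out a gene, neither these nor the plasma cell genes below. TRIB3 was called lower with HFG in 5 of 14 alternative analyses (adjusted p of 0.00125 to 0.0395), among them that without the first NCP26 library, and ASNS with all AMO1 groups of 6 h in one fit (adjusted p = 0.00455). In plasma cell genes, SDC1 (1635, 1824 and 1984 CPM with NCP26, interval -0.59 to -0.16, adjusted p = 0.156) and POU2AF1 (258, 242 and 275 CPM, interval -0.66 to -0.21, adjusted p = 0.119) were below every NCP26 library with HFG, again not called. SDC1 was called lower in 5 of 14 alternative analyses (adjusted p of 0.00271 to 0.0336), including that without the first NCP26 library (-0.44, adjusted p = 0.00901), and POU2AF1 in 4 (adjusted p of 0.00137 to 0.0411). HILPDA, at 4.61, 9.58 and 6.75 CPM with NCP26, overlapped (interval -1.03 to 0.24, adjusted p = 0.585).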

How the data were processed

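Total RNA of AMO1 cells was sequenced by the authors as directional poly(A) libraries on an Illumina NextSeq and quantified with kallisto. The table deposited by the authors holds estimated counts per Ensembl gene, made with kallisto and given as whole numbers with no normalization. The methods name GRCh38 and the submitters' processing notes hg19. The kallisto version, its annotation and how counts became whole are not given in those sources, so no coordinate was taken from the table, and 19299 of 20167 IDs (95.7%) were named from GENCODE v44. Estimated counts split shared reads among similar genes. For genes named in the text, the share of 31-mers found in transcripts of other genes was computed on a sample of them.

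Counts were rounded and tested in R 4.3.3 with edgeR 4.0.16 (filterByExpr at 10 counts and a total of 15, TMM factors, quasi-likelihood F test, Benjamini-Hochberg threshold 0.05), using only the 6 libraries of each comparison. The study's methods use DESeq2, run here (1.42.0) as an alternative. SE was obtained as the absolute log2 fold change over the root of its F statistic, and intervals are at 95%. Levels are CPM with TMM factors set over the 18 AMO1 libraries of 6 h. On simulated counts, with 2-fold changes in some genes, 87.78, 83.96 and 88.6% of those were recovered for DMSO, NCP26 and halofuginol, and 6.965, 9.137 and 5.67% of all calls were false. In the simulation for DMSO 90 of 10642 genes changed 2-fold and 110 by a log2 change of 1.5. Far more genes were called in the data against DMSO and halofuginol, so these rates may not hold there. Members, gene lists and tests were chosen with earlier results of these data known. Named genes were a fixed list, up to 10 changes in each direction against DMSO and 6 against the other compounds among called genes that had a symbol, averaged 5 CPM or more and did not overlap between groups, and up to 4 called members of each list plus the leading member in its less frequent direction. Genes named outside this rule are marked where they appear, or carry a searched motif. One result that the rule names is not reported here. Of these libraries none were identical. Settings tried are DESeq2 size factors and Wald test, no filter, all 6 h groups in one fit, a replicate block, GC and length offsets and leaving out each library.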

Additional observations from a re-analysis of the deposited data

How the results depend on the processing

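Against DMSO 4749 (DESeq2 Wald test) to 6064 genes (no filter on low counts) were called over the alternatives other than leaving out a library, and 4946 to 5653 on leaving out each library in turn. Against halofuginol the ranges were 4345 to 5770 and 4795 to 5528. The count of 28 against NCP26 depended on the setting, with 70 genes by the DESeq2 Wald test, 366 without a filter, 375 with all AMO1 groups of 6 h in one fit, 58 with the GC offset, 166 with GC and transcript length offsets (chosen after seeing the data) and 5 to 100 on leaving out each library in turn. The cause was not tested.

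Same-numbered libraries had correlations of deviations of -0.312, -0.073 and -0.0537 against DMSO, -0.0776, -0.374 and 0.125 against NCP26, and 0.0586, -0.00837 and 0.000845 against halofuginol. These values showed no consistent pairing by number, but with so few libraries per group they cannot exclude a shared culture or batch. With the replicate block 5434, 17 and 5469 genes were called in these comparisons. Not every library correlated best with its own number.

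Of 110 named genes against DMSO 97 kept their direction and side of the threshold in all 14 alternatives, as did 4 of 20 against NCP26 and 23 of 27 against halofuginol. Signs turned only in genes that were not called without these changes. With the GC offset, with and without the block, ATF4 against DMSO was at 0.13 on the log2 scale, PYCR1 at 0.14 and MCL1 at -0.07, and BBC3 with the block at 0.01. With GC and length offsets ATF4 was at 0.24, PYCR1 at 0.17 (called, adjusted p = 0.0371), MCL1 at -0.09, BBC3 at 0.07, DDIT3 against NCP26 at 0.08 and EPRS1 against halofuginol at -0.03. MCL1 was at -0.01 with DESeq2 size factors and the Wald test, and PSAT1 against halofuginol at 0.01 in one fit. On leaving out each library in turn ATF4 ran from -0.05 to 0.02, MCL1 from -0.05 to 0.06 and PSAT1 against halofuginol from -0.07 to 0.07. Depth of 2353907 to 5761682 counts in these libraries limits low genes most.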

Other observations

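Tubulin mRNAs fell as a family, with 9 of 10 tested members lower with HFG and 0 higher (90% called against 54.3% of all genes). Their median log2 fold change was -1.51 against 0.01 over all tested genes. TUBA1B, a main alpha tubulin, had 2337, 2350 and 2164 CPM with DMSO and 689, 750 and 728 CPM with HFG (-1.66 ± 0.055, SE, adjusted p = 2.18e-12), and 52.7% of its sampled 31-mers occur in other genes. TUBB6, a low beta tubulin, had 12.1, 16.9 and 9.65 CPM against 3.83, 1.85 and 2.02 CPM (-2.43 ± 0.31, adjusted p = 8.99e-06). Genes of the NRF2 and oxidative stress programme had 13 of 19 lower and 5 higher (94.7% called) with a median of -0.59. The peroxide scavenger PRDX1 fell from 401, 416 and 413 CPM to 116, 118 and 109 CPM (-1.85 ± 0.072, adjusted p = 1.58e-11) and HMOX1, which degrades heme, fell as well (-1.62 ± 0.17, adjusted p = 8.93e-07). SQSTM1, the autophagy receptor p62, belongs to this list and to that of autophagy and lysosome genes and rose from 760, 802 and 731 CPM to 1763, 1816 and 1668 CPM (1.19 ± 0.056, adjusted p = 1.83e-10).

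Autophagy and lysosome genes had 14 of 33 higher and 2 lower with a median of 0.17, at 48.5% called below the 54.3% of all genes. MAP1LC3B, the autophagosome protein LC3B, had 109, 111 and 134 CPM with DMSO and 255, 258 and 256 CPM with HFG (1.12 ± 0.085, adjusted p = 4.03e-08). Factors of nonsense-mediated decay had 9 of 14 higher and 2 lower (78.6% called). Among them the kinase SMG1 went from 123, 118 and 134 CPM to 238, 265 and 257 CPM (1.02 ± 0.079, adjusted p = 4.9e-08). Splicing factors split, 13 of 30 higher and 10 lower (76.7% called), with TRA2A (1.24 ± 0.083, adjusted p = 1.05e-08) and CLK3 (-0.84 ± 0.09, adjusted p = 1.53e-06) at the ends. Genes of mTORC1 nutrient sensing had 8 of 22 higher and 4 lower, and the 54.5% called is close to the 54.3% of all genes. Among them RRAGC, a GTPase that carries the amino acid signal, rose (1.13 ± 0.1, adjusted p = 3.29e-07) and SESN1 fell (-0.93 ± 0.086, adjusted p = 3.38e-07). Interferon-stimulated genes had 8 of 26 higher and 6 lower (53.8% called), near the 54.3% of all genes. Below that share were proteasome genes, with 2 of 30 higher and 12 lower (46.7%), and nuclear receptors, with 2 of 16 higher and 4 lower (37.5%). Immunoglobulin and secretion genes had 2 of 20 higher and 13 lower (75%). Zinc finger and other short-lived regulators had 13 of 29 higher and 7 lower (69%), and plasma cell markers 1 of 10 higher and 7 lower (80%).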
